A study of Mus musculus with 6 samples.

Results

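The mitochondrial genome of the mouse was represented by 37 gene entries whose symbols begin with mt-, out of 54087 genes counted in each library. They comprise 13 protein-coding genes, 2 ribosomal RNAs (rRNAs) and 22 transfer RNAs (tRNAs), chosen by that prefix alone. RNA was sequenced from male C57BL/6 germ cells that were bright or medium for an Id4-GFP reporter, collected at 10 days post partum (dpp), a population that the labels place close to spermatogonial stem cells. The libraries were 3 Dnmt3A KO/KO and 3 Dnmt3A WT/WT samples, with no treatment given and the reporter gate common to both genotypes. The labels do not give how the KO allele was made, whether it acted in germ cells alone, or whether each numbered sample is a different animal. The p-values set the genotype difference against the spread among samples of the same genotype, and that spread may be technical only. The comparison addresses how the transcriptome of these cells differs when the DNA methyltransferase DNMT3A is mutated.

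Mitochondrial DNA is transcribed from both strands as long precursors, which are cut mainly at the tRNAs that lie between the other genes. The coding genes specify subunits of the respiratory chain and of ATP synthase, and the rRNAs and tRNAs serve the separate ribosomes that translate them inside the organelle. Polymerase, processing enzymes and ribosomal proteins are all imported products of nuclear genes. Undifferentiated spermatogonia are generally described as relying more on glycolysis than later germ cells do.

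All 37 entries were found in GENCODE M21 on GRCm38, the assembly also called mm10. The annotation places 12 coding genes, both rRNAs and 14 tRNAs on the plus strand, and mt-Nd6 and 8 tRNAs on the minus strand. None has an intron, so each interval given is the whole annotated exon. Several neighbours share bases, and a read over such bases can belong to either gene. The longest overlap is the 43 bases at which the ATP synthase genes mt-Atp8 and mt-Atp6 are read in different frames. Overlaps of 7 bases join the complex I genes mt-Nd4l and mt-Nd4, and 14 bases of mt-Nd5 lie opposite the end of mt-Nd6. The junctions are shown 5′ to 3′ on the plus strand, with the shared bases in capitals, since they set what a count of these genes can separate (GENCODE M21 transcripts, GRCm38, chrM:7912-7984, chrM:10152-10188 and chrM:13537-13580, in that order).
mt-Atp8/mt-Atp6: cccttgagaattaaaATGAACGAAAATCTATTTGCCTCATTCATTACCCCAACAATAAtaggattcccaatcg
mt-Nd4l/mt-Nd4: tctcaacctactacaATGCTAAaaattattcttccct
mt-Nd5/mt-Nd6: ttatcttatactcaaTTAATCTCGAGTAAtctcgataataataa

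A block on chromosome 1 (chr1:24611535-24616197, minus strand) holds 7 annotated pseudogenes that copy consecutive mitochondrial coding genes. The copies of mt-Co2, mt-Atp6, mt-Co3, mt-Nd3, mt-Nd4l and mt-Nd4 (Gm28661, Gm10925, Gm28437, Gm28438, Gm10222 and Gm28439) had 0 mismatches over 681, 678, 783, 342, 294 and 876 aligned bases. The copy of mt-Co1, Gm29216, had 1 mismatch over the 483 bases at the 3′ end of that gene. A read from inside such a stretch has 2 exact positions in the annotation. The first 60 bases of mt-Co2 (chrM:7013-7072, plus strand) and the matching bases of Gm28661 (chr1:24615506-24615565, minus strand) are shown because every letter is the same. The stretch of mt-Co1 at chrM:6390-6449 and its counterpart in Gm29216 at chr1:24616129-24616188 (minus strand) are shown for the base that differs, in capitals.
mt-Co2: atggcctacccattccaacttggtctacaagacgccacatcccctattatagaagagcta
Gm28661: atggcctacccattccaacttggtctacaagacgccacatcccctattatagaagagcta
mt-Co1: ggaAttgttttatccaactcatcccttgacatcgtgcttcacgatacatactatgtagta
Gm29216: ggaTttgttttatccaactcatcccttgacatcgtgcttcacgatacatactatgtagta

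Gene counts summed to between 43951664 and 61749155 per KO/KO library and between 42681201 and 48423509 per WT/WT library. Dnmt3a, the targeted gene, had 90.2, 104 and 99.5 CPM (gene counts scaled by library size and TMM factor) in KO/KO, against 215, 193 and 188 CPM in WT/WT, so every KO/KO library lay below every WT/WT library. Its log2 fold change was -1.02 (SE 0.09, n = 3 per genotype, edgeR adjusted p = 0.000222). Libraries of 1 genotype differed more in KO/KO, where a chi-square of their counts was 40.4 to 54.5 per degree of freedom, than in WT/WT, where it was 13.5 to 16.2. Germ cell markers were abundant in every library, with the 6 listed genes summing to between 1623 and 1820 CPM in KO/KO and between 1635 and 1746 CPM in WT/WT. Of these, Id4, the gene behind the gate, and Gfra1 rose, and Zbtb16 and Sall4 fell. Sertoli cell markers were also present, at 374 to 533 CPM in KO/KO and 363 to 577 CPM in WT/WT, and none of the 6 passed the test.

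Mitochondrially encoded RNA took a smaller share of the KO/KO libraries. All 37 genes together held 9.06%, 7.22% and 7.39% of the gene counts in KO/KO, against 9.70%, 9.87% and 9.38% in WT/WT. The means were 7.89% ± 1.02 in KO/KO and 9.65% ± 0.248 in WT/WT (SD, n = 3 each), a ratio of 0.818, and no KO/KO library reached the lowest WT/WT library. KO/KO replicate 1 lay nearest to WT/WT, and the KO/KO libraries were spread more widely than the WT/WT libraries. In RNA from pooled cells, fewer cells of a type and less RNA per cell cannot be told apart, and a share can also move with the rest of the library.

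The rRNAs, the source of most of those counts, held 7.68%, 6.28% and 6.13% of the gene counts in KO/KO, against 8.20%, 8.26% and 7.74% in WT/WT. The coding genes held 1.38%, 0.943% and 1.26% in KO/KO, against 1.504%, 1.61% and 1.64% in WT/WT. Both classes were lower in every KO/KO library, with a ratio of KO/KO to WT/WT means of 0.830 for the rRNAs and 0.752 for the coding genes. The tRNAs were a trace of the library, at 0.00159%, 0.00111% and 0.00289% in KO/KO, against 0.00138%, 0.00153% and 0.00181% in WT/WT, and there the genotypes overlapped. The lowest and the highest tRNA share were both in KO/KO, with 95% Wilson intervals of 0.00102% to 0.00121% in replicate 2 and 0.00275% to 0.00302% in replicate 3. For the coding and rRNA shares the half-widths were at most 0.00382 and 0.00802 percentage points, so counting error, which is all these intervals cover, was small beside the spread between libraries.

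**Figure D1:**
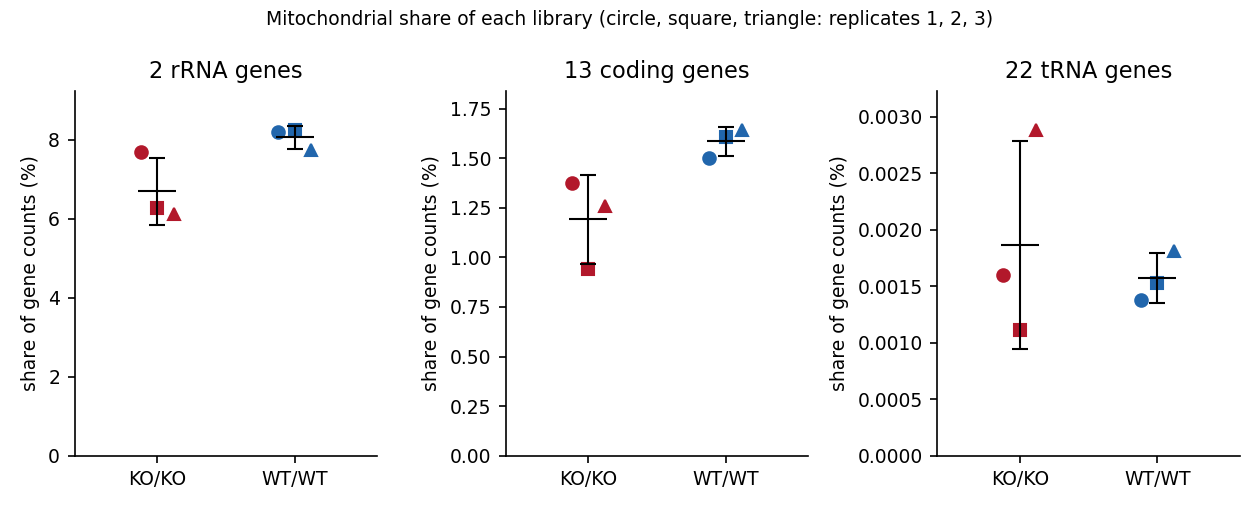
Share of gene counts in each library (percent, linear axes from 0) for mitochondrial coding genes, rRNAs and tRNAs, with KO/KO left of WT/WT, 1 symbol per replicate and lines for the mean ± SD. The KO/KO libraries lie below all WT/WT libraries for coding genes (at most 1.38% against at least 1.504%) and rRNAs, and overlap them for tRNAs.

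The mitochondrial shares could move with rRNA removal and RNA quality, and the part of either was not tested. Ribosomal RNA of nuclear origin was examined beside them only through entries named for 5S rRNA. Nuclear rRNA counted under any other name lies outside these values, and whether abundant entries hold it was not examined. Entries named for nuclear 5S rRNA, 65 of them with counts, held 0.0172%, 0.0145% and 0.0184% in KO/KO and 0.0179%, 0.0170% and 0.0197% in WT/WT. The 4 most abundant entries outside the mitochondrial genome (Gm23935, RP23-81C12.1, RP23-81C12.3 and Gm24270, picked for their abundance and given no identity here) held 20.9%, 21.6% and 19.98% in KO/KO, against 22.9%, 20.5% and 23.1% in WT/WT. Both sets overlapped between genotypes. With those 4 entries left out of the totals, the log2 ratio of the whole mitochondrial share was -0.32, against -0.29 with them.

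Among the rRNAs, mt-Rnr1, the RNA of the small mitochondrial ribosomal subunit (chrM:70-1024), fell. It had 28603, 21559 and 21515 CPM in KO/KO, against 34130, 34491 and 31897 CPM in WT/WT, a log2 fold change of -0.49 (SE 0.12, edgeR adjusted p = 0.0208). The large-subunit rRNA mt-Rnr2 (chrM:1094-2675) had 46832, 39358 and 37192 CPM in KO/KO, against 51268, 48600 and 49041 CPM in WT/WT. It did not pass the test (log2 fold change -0.27, SE 0.10, edgeR adjusted p = 0.0945), although here too every KO/KO library lay below every WT/WT library. The call of mt-Rnr1 was lost without any 1 WT/WT library (adjusted p between 0.0513 and 0.0721), and mt-Rnr2 was called without KO/KO replicate 1 (adjusted p = 0.0146). The proportion of the 2 rRNAs differed between the genotypes: the ratio of mt-Rnr2 to mt-Rnr1 counts was 1.64, 1.83 and 1.73 in KO/KO and 1.502, 1.41 and 1.54 in WT/WT, without overlap. This ratio received no test, and the part of rRNA removal or RNA quality in it was not tested.

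Of the 13 coding genes, all of which passed the filter on low counts, 4 fell in KO/KO and 0 rose (edgeR quasi-likelihood test, adjusted p under 0.05 over all genes tested). Over the 21314 genes tested, 6.42% were called lower and 8.33% higher. The median log2 fold change was -0.41 over the coding genes and 0.00 over all genes tested, and without KO/KO replicate 2 the coding median was -0.21. In 9 of the 13 every KO/KO library lay below every WT/WT library, a pattern found in 17.5% of all genes tested, and in 4 the genotypes overlapped. The 4 that fell were mt-Co1, mt-Nd4l, mt-Nd4 and mt-Nd1. Without WT/WT replicate 1, 2 or 3 the only coding gene called was mt-Co1, while 2.92%, 2.53% and 2.96% of all genes tested were then called lower.

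mt-Co1, the catalytic subunit of cytochrome c oxidase or complex IV (chrM:5328-6872), had 4220, 3164 and 3296 CPM in KO/KO, against 5215, 5355 and 5666 CPM in WT/WT. Its highest KO/KO library was well below its lowest WT/WT library. Its log2 fold change of -0.60 (SE 0.11, edgeR adjusted p = 0.00637) was called in each of the 15 alternative fits, in which it lay between -0.74 and -0.52. The other subunits of complex IV encoded in the organelle had far lower levels per length, given further on. mt-Co2 (chrM:7013-7696) had 15.2, 13.7 and 49.9 CPM in KO/KO, against 11.8, 14.4 and 19.5 CPM in WT/WT. mt-Co3 (chrM:8607-9390) had 14.2, 11.9 and 48.9 CPM in KO/KO, against 10.9, 12.98 and 16.9 CPM in WT/WT. In both genes KO/KO replicate 3 stood apart and the other libraries overlapped, and neither passed the test (log2 fold changes 0.79 and 0.88, edgeR adjusted p = 0.261 and 0.236). Without KO/KO replicate 3 their log2 fold changes were -0.06 and -0.05.

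The genes of complex I, NADH dehydrogenase, included 3 of the 4 that fell. mt-Nd1 (chrM:2751-3707), part of the membrane arm near the quinone site, had 1932, 1177 and 1702 CPM in KO/KO, against 2218, 2316 and 2448 CPM in WT/WT. Its log2 fold change was -0.54 (SE 0.15, edgeR adjusted p = 0.0418). The overlapping pair mt-Nd4l and mt-Nd4, membrane-arm subunits made from a shared mRNA, moved alike. mt-Nd4l (chrM:9877-10173) had 273, 167 and 215 CPM in KO/KO, against 310, 328 and 342 CPM in WT/WT, and mt-Nd4 (chrM:10167-11544) had 1629, 1042 and 1515 CPM in KO/KO, against 1943, 2035 and 2058 CPM in WT/WT. Their log2 fold changes were -0.58 (SE 0.15, edgeR adjusted p = 0.0289) and -0.53 (SE 0.14, adjusted p = 0.0348). In these 3 genes the lowest library was KO/KO replicate 2 and all KO/KO libraries lay below WT/WT. mt-Nd1 and mt-Nd4l also lost their calls without KO/KO replicate 3 (edgeR adjusted p = 0.0598 and 0.0655).

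The remaining complex I genes did not pass the test. mt-Nd5 (chrM:11742-13565), a proton-pumping subunit, had 2391, 1716 and 2052 CPM in KO/KO, against 2506, 2437 and 2789 CPM in WT/WT (log2 fold change -0.33, SE 0.12, edgeR adjusted p = 0.0897). mt-Nd6 (chrM:13552-14070), the coding gene on the minus strand, had 147, 117 and 146 CPM in KO/KO, against 170, 153 and 171 CPM in WT/WT (log2 fold change -0.27, SE 0.10, edgeR adjusted p = 0.107). The genotypes did not overlap in either gene, and whether the counting used strand is unknown here. mt-Nd2 (chrM:3914-4951) also lay lower in all KO/KO libraries, at 840, 472 and 904 CPM in KO/KO against 930, 966 and 1052 CPM in WT/WT (log2 fold change -0.41, SE 0.20, edgeR adjusted p = 0.197). mt-Nd3 (chrM:9459-9806), the smallest of the group beside mt-Nd4l, overlapped, with 133, 71.4 and 189 CPM in KO/KO and 128, 133 and 167 CPM in WT/WT.

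mt-Cytb, the organelle's only gene for complex III (chrM:14145-15288), lay close to the threshold. It had 1887, 1181 and 1881 CPM in KO/KO, against 2194, 2378 and 2443 CPM in WT/WT, with a log2 fold change of -0.50 (SE 0.16, edgeR adjusted p = 0.0600). It was called in 8 of 15 alternative fits, with an adjusted p of at most 0.169 in the others. Of the ATP synthase or complex V genes, mt-Atp6 (chrM:7927-8607) had 20.4, 19.6 and 55.1 CPM in KO/KO, against 22.5, 23.8 and 30.5 CPM in WT/WT (log2 fold change 0.31, edgeR adjusted p = 0.601). KO/KO replicate 3 was again the high library, and without it the value was -0.34. mt-Atp8 (chrM:7766-7969) was counted only 36, 14 and 38 times in KO/KO and 36, 53 and 37 times in WT/WT, or 0.804, 0.284 and 0.589 CPM against 0.822, 1.10 and 0.907 CPM (edgeR adjusted p = 0.272).

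**Figure D2:**
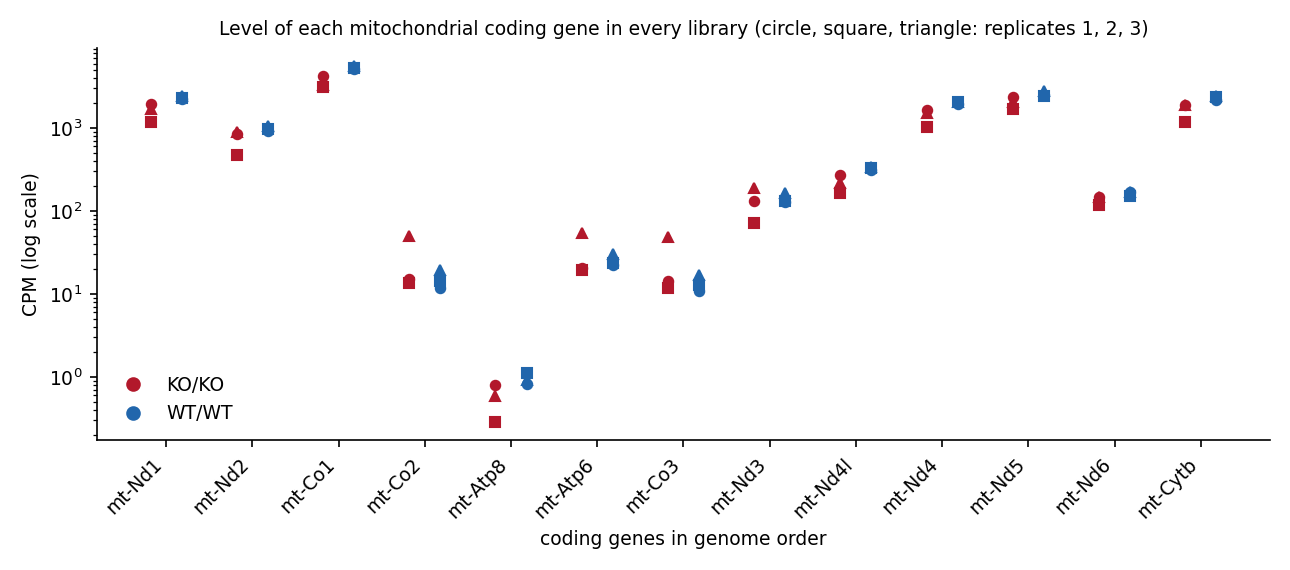
Levels of the 13 coding genes in genome order (CPM, log scale), with KO/KO points left of WT/WT points for each gene and 1 symbol per replicate. mt-Co1 separates the genotypes (at most 4220 against at least 5215 CPM), while KO/KO replicate 3 lies above all other libraries for mt-Co2, mt-Atp6 and mt-Co3.

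Levels per length varied widely along the genome. Per kilobase, mt-Co1 averaged 2304 CPM in KO/KO and 3503 CPM in WT/WT, and mt-Nd1, mt-Cytb, mt-Nd4 and mt-Nd5 averaged 1013 to 1675 CPM in KO/KO and 1413 to 2432 CPM in WT/WT. By contrast, mt-Atp6, mt-Co2 and mt-Co3 averaged 46.5, 38.4 and 31.9 CPM per kilobase in KO/KO and 37.6, 22.2 and 17.4 CPM per kilobase in WT/WT. Those 3 genes also had the highest percentage of their own length in common with other annotated transcripts. Of all windows of 50 bases in mt-Co2, mt-Co3 and mt-Atp6, 100%, 99.9% and 99.5% were found unchanged, on either strand, in another annotated transcript. The share was 98.8% for mt-Nd4l, 98.0% for mt-Nd3, 62.2% for mt-Nd4 and 51.1% for mt-Co1, then 8.19% for mt-Nd2 and 7.61% for mt-Nd5. It was 0 for mt-Nd1, mt-Nd6, mt-Cytb and mt-Atp8, 1.04% for mt-Rnr2 and 0 for mt-Rnr1.

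How reads with more than 1 position were treated is unknown here, so the counts of genes with copies are uncertain to that extent, and its part in their levels was not tested. mt-Nd4l, with 98.8% of its windows shared, averaged 735 CPM per kilobase in KO/KO and 1100 in WT/WT. mt-Atp8, with no window shared, averaged 2.74 CPM per kilobase in KO/KO and 4.62 in WT/WT. The search covered annotated transcripts only. The stretch between mt-Co2 and mt-Atp6 that holds most of mt-Atp8 is 230 bases long. Between Gm10925 and Gm28661 lie 233 bases without annotation, whose sequence was not examined.

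The 6 coding genes with under 50% of windows shared were mt-Nd1, mt-Nd2, mt-Atp8, mt-Nd5, mt-Nd6 and mt-Cytb. Together they held 0.733%, 0.480% and 0.698% of gene counts in KO/KO, against 0.770%, 0.820% and 0.851% in WT/WT, lower in every KO/KO library with a ratio of means of 0.783. In each of the 6 all KO/KO libraries lay below WT/WT, a pattern found in 17.5% of all genes tested. Of them 1, mt-Nd1, was called lower, against 6.42% of all genes tested. Its call was lost without any 1 WT/WT library and without KO/KO replicate 3. The other 7 genes had a ratio of means of 0.720, with 3 called lower, 3 separated and 4 overlapping. The summed share was lower in every KO/KO library in both groups, and the part of shared sequence in this was not tested.

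**Figure D3:**
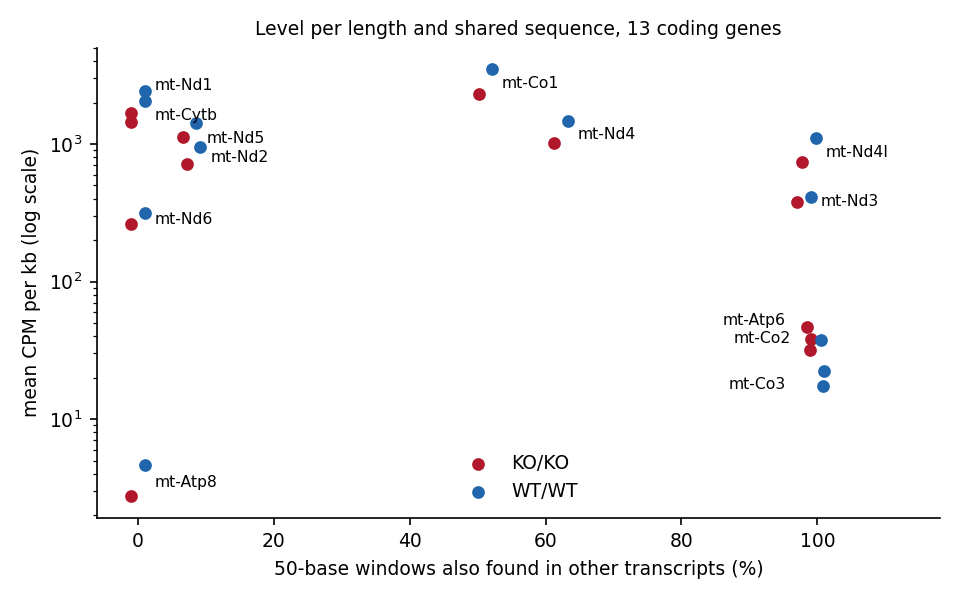
Mean level of each of the 13 coding genes (CPM per kilobase, log scale) against the percentage of its 50-base windows found in another annotated transcript, with KO/KO and WT/WT means as separate symbols. mt-Co2, mt-Co3 and mt-Atp6 lie at or near 100% with 17.4 to 46.5 CPM per kilobase, mt-Nd4l lies at 98.8% with 735 and 1100, and mt-Atp8 is the lowest of all at 0%.

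Proportions among the coding genes, which received no test, differed in part between the genotypes. mt-Nd5 made up 17.8% ± 0.867 of coding counts in KO/KO and 15.8% ± 0.598 in WT/WT, and mt-Nd6 made up 1.19% ± 0.0971 in KO/KO and 1.01% ± 0.0722 in WT/WT (SD, n = 3 each). Both lay higher in every KO/KO library, as did mt-Co3, and the shares of the other coding genes overlapped. In CPM, all KO/KO libraries lay above WT/WT in 18.2% of all genes tested, and no such figure was computed for proportions. These are shares of 1 total, so a share can rise while the level falls. The CPM of mt-Nd5 and mt-Nd6 was lower in every KO/KO library. mt-Co1 took 31.1% ± 3.62 in KO/KO and 33.1% ± 0.184 in WT/WT, with overlap, yet its ratio to mt-Nd5 was 1.77, 1.84 and 1.61 in KO/KO, below the 2.08, 2.20 and 2.03 of WT/WT. The ratio of total rRNA to total coding counts overlapped, at 5.59, 6.66 and 4.87 in KO/KO and 5.45, 5.14 and 4.70 in WT/WT. The ratio of mt-Nd6 to mt-Nd5, neighbours on opposite strands, overlapped as well, with means of 0.0669 in KO/KO and 0.0640 in WT/WT.

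The tRNAs, the shortest members at 59 to 75 bases, were counted 701, 531 and 1782 times per library in KO/KO and 628, 742 and 774 times in WT/WT. Whether such counts come from mature tRNAs or from uncut precursors is unknown here, as is how well RNAs this short were retained. In KO/KO 7, 5 and 6 of the 22 had no count, and in WT/WT 6, 4 and 6. mt-Tk and mt-Ts2 were at 0 in all 6 libraries, which allows up to 3 counts each, or between 0.0486 and 0.0703 on the CPM scale before TMM scaling, for counting error only. Only 9 passed the filter on low counts, and the other 13 had at most 40 counts in any library. Of the 9, 1 rose and 0 fell, with 8.33% of all genes tested called higher. All KO/KO libraries lay above WT/WT in 1 tRNA, against 18.2% of all genes tested, and below it in 2 (mt-Tw and mt-Tp), against 17.5%.

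The tRNA that rose was mt-Ti, which carries isoleucine and sits between mt-Nd1 and the minus-strand mt-Tq. It had 48, 33 and 196 counts in KO/KO, against 15, 23 and 16 in WT/WT. On the CPM scale these were 1.07, 0.669 and 3.04 in KO/KO and 0.342, 0.478 and 0.392 in WT/WT, so replicate 3 was the highest by far and all KO/KO libraries exceeded WT/WT. The log2 fold change was 1.98 (SE 0.55, edgeR adjusted p = 0.0402). Without KO/KO replicate 3 it was 1.11 (adjusted p = 0.130), and the call was also lost without each WT/WT library (adjusted p between 0.111 and 0.125). Its annotated sequence (GENCODE M21, GRCm38, chrM:3706-3774, plus strand) is shown because its ends, in capitals, are 2 bases that also belong to mt-Nd1 and 3 that lie opposite mt-Tq.
mt-Ti: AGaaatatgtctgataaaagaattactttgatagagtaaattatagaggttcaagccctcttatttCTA

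The tryptophan tRNA mt-Tw, which abuts mt-Nd2, had 2.21, 1.05 and 1.78 CPM in KO/KO, against 2.97, 2.74 and 3.97 CPM in WT/WT. It lay below WT/WT in all KO/KO libraries but did not pass the test (log2 fold change -0.94, SE 0.30, edgeR adjusted p = 0.0675), and it was called without KO/KO replicate 1 (adjusted p = 0.0397) and by DESeq2 (adjusted p = 0.0251). The proline tRNA mt-Tp likewise lay lower in KO/KO (log2 fold change -0.51, edgeR adjusted p = 0.185). The methionine tRNA mt-Tm, the tRNA with the most counts, had 5.27, 4.30 and 13.04 CPM in KO/KO, against 3.83, 4.32 and 5.91 CPM in WT/WT, with the genotypes overlapping. The threonine tRNA mt-Tt had 0.514, 0.345 and 2.23 CPM in KO/KO, against 0.502, 0.208 and 0.466 CPM in WT/WT. In both the high library was KO/KO replicate 3, and neither passed the test (log2 fold changes 0.69 and 1.42, edgeR adjusted p = 0.263 and 0.209). mt-Tl1, mt-Tq, mt-Ty and mt-Tr overlapped between genotypes, with log2 fold changes between -0.75 and 0.42.

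**Figure D4:**
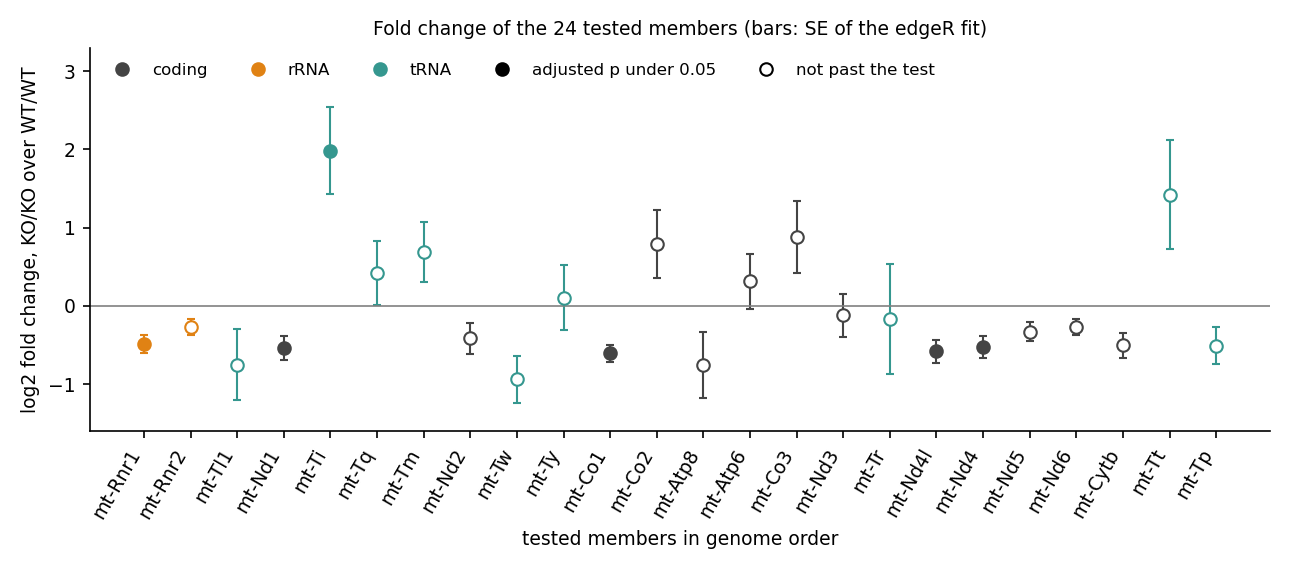
Log2 fold change of KO/KO over WT/WT for the 24 tested mitochondrial genes in genome order, with standard errors, coloured by class and filled where adjusted p was under 0.05. The rRNAs and the coding genes mt-Nd1, mt-Co1, mt-Nd4l, mt-Nd4 and mt-Cytb lie between -0.60 and -0.27, mt-Ti lies at 1.98, and mt-Co2 and mt-Co3 lie above 0 with wide errors.

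KO/KO replicate 3 differed from the other KO/KO libraries gene by gene. Its level over the mean of replicates 1 and 2 was 5.20-fold for mt-Tt, 3.75-fold for mt-Co3, 3.49-fold for mt-Ti, 3.45-fold for mt-Co2, 2.75-fold for mt-Atp6, 2.73-fold for mt-Tm and 1.85-fold for mt-Nd3. For mt-Co1 and mt-Rnr1 the same quantity was 0.893-fold and 0.858-fold. The genes that were high in this library included mt-Co2, mt-Co3 and mt-Atp6, with at least 99.5% of their windows in other annotated transcripts, and a few tRNAs, for which the search found no shared window. mt-Nd4l, with 98.8% of its windows shared, was at 0.977-fold. This is a description of 1 library, and its source was not tested.

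Nuclear genes that serve the mitochondrial genome moved less. The 7 lists together held 168 genes, of which 167 were tested, 2 rose and 13 fell, with a median log2 fold change of -0.08, against -0.41 for the mitochondrial coding genes (-0.21 without KO/KO replicate 2) and 0.00 over all genes tested. As shares of the genes tested, calls lower and higher were 6.42% and 8.33% over all genes. Without WT/WT replicate 1, 2 or 3 the number called lower was 5, 4 and 2 and the number called higher was 0. In the same fits 2.92%, 2.53% and 2.96% of all genes tested were called lower. Without KO/KO replicates 2 and 3 the number of list genes called lower was 8 and 7.

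Of 10 genes for mitochondrial transcription, 1 fell and 0 rose (median log2 fold change -0.03). It was Polrmt, the mitochondrial RNA polymerase, at 37.6, 33.0 and 35.9 CPM in KO/KO and 45.7, 43.3 and 44.6 CPM in WT/WT (log2 fold change -0.33, SE 0.09, edgeR adjusted p = 0.0438). The promoter-melting factor Tfb2m (log2 fold change -0.40, adjusted p = 0.0576) and Mterf3 (0.32, adjusted p = 0.0907) did not pass in edgeR. The call of Polrmt was lost without each WT/WT library and without KO/KO replicates 2 and 3. It was also lost with no filter on low counts, with the replicate number as a block and with totals without mitochondrial and nuclear rRNA entries. Of 12 replication and nucleotide supply genes 3 fell and 0 rose (median -0.01). Top1mt, the mitochondrial topoisomerase that relieves torsion in its DNA, had 14.8, 17.6 and 13.4 CPM in KO/KO, against 29.5, 29.3 and 27.3 CPM in WT/WT, a clear separation (log2 fold change -0.91, SE 0.13, edgeR adjusted p = 0.00191). The helicase gene Twnk and Rnaseh1, whose enzyme removes RNA from RNA-DNA hybrids, fell by 0.49 and 0.45 on the log2 scale, and 1 gene of the list was called lower without any 1 WT/WT library and without KO/KO replicate 2 or 3.

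Of 30 RNA processing and modification genes found and tested, 4 fell and 1 rose (median -0.08). Those that fell were Pnpt1 (log2 fold change -0.48, SE 0.10), a polynucleotide phosphorylase of RNA decay, Grsf1 (-0.35, SE 0.07), an RNA granule protein, Elac2 (-0.41, SE 0.09), which cuts tRNA 3′ ends from precursors, and Fastk (-0.52, SE 0.14), an isoform of which stabilizes the mt-Nd6 mRNA. Without WT/WT replicate 1, 2 or 3 the number of this list called lower was 3, 1 and 0. The tRNA modification gene Mto1 rose (log2 fold change 0.35, SE 0.10, edgeR adjusted p = 0.0432) and is named after its values were seen. It lost its call without each WT/WT library and without KO/KO replicates 1 and 3. The call was also lost with upper quartile factors, with no filter on low counts and with the replicate number as a block. Of 11 translation factors 0 passed the edgeR test in either direction (median -0.12), and the nearest was the elongation factor Tufm (-0.28, adjusted p = 0.0581). Of 76 mitochondrial ribosomal protein genes tested, 2 fell and 0 rose (median -0.08): Mrps2 (-0.84, SE 0.19) and Mrpl38 (-0.34, SE 0.09), and 0 were called lower without any 1 WT/WT library. Of 17 mitochondrial aminoacyl-tRNA synthetases, Lars2, for leucine, fell (-0.44, SE 0.11) and Iars2, which charges the isoleucine tRNA, rose (0.29, SE 0.08, edgeR adjusted p = 0.0370). No synthetase was called lower without WT/WT replicate 1, WT/WT replicate 3 or KO/KO replicate 3. None was called higher without any 1 WT/WT library, without KO/KO replicate 2, with upper quartile factors or with the replicate number as a block.

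Of 12 biogenesis regulators and markers of mitochondrial content, 2 fell and 0 rose (median -0.19). Ppargc1b, a coactivator of mitochondrial biogenesis genes, had 0.558, 0.770 and 0.264 CPM in KO/KO, against 2.65, 2.31 and 3.38 CPM in WT/WT. It was low in both genotypes and separated them fully (log2 fold change -2.40, SE 0.39, edgeR adjusted p = 0.00374). The related coactivator Pprc1 fell by 0.26 on the log2 scale (SE 0.08, adjusted p = 0.0497). This list had 1 gene called lower, not 2, without any 1 WT/WT library, without KO/KO replicate 2 or 3, with RLE or upper quartile factors and with DESeq2. The same held with a filter of 1 CPM, with the replicate number as a block and with totals without mitochondrial and nuclear rRNA entries. The import receptor gene Tomm20 had 53.1, 40.4 and 49.2 CPM in KO/KO, against 56.9, 59.2 and 63.3 CPM in WT/WT, lower in every KO/KO library but not called (log2 fold change -0.33, edgeR adjusted p = 0.0816), and Timm23, of the inner membrane translocase, overlapped (-0.28, adjusted p = 0.164).

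**Figure D5:**
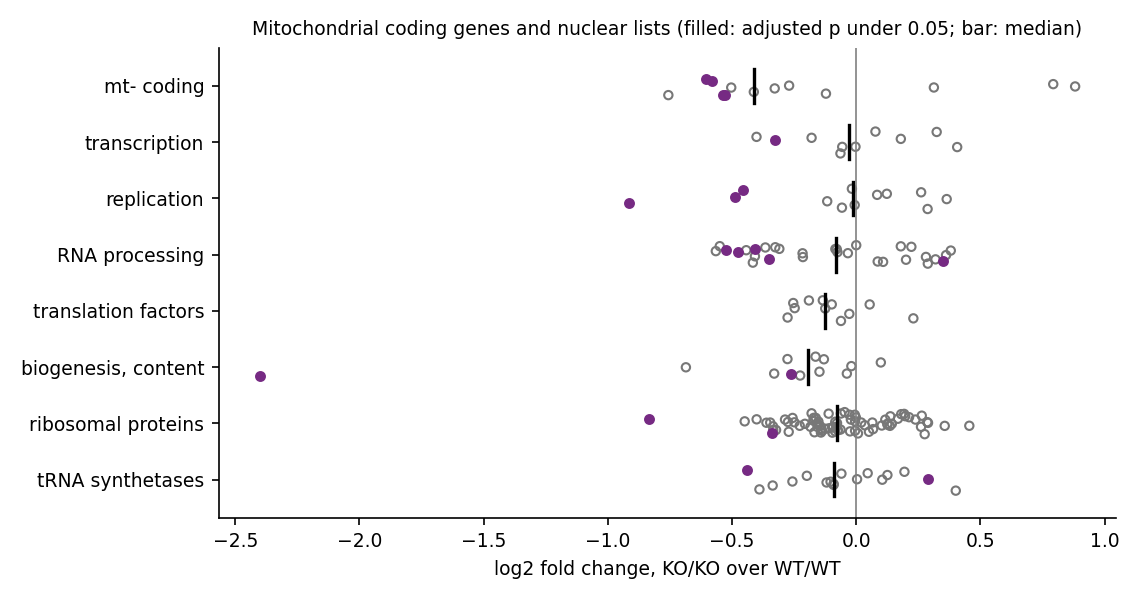
Log2 fold change of KO/KO over WT/WT for each tested mitochondrial coding gene and each tested gene of the 7 nuclear lists, 1 row per list, with a bar at the median and filled points where adjusted p was under 0.05. The median of the coding genes lies at -0.41, the medians of the nuclear lists lie between -0.19 and -0.01, and Ppargc1b is the far point at -2.40.

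Markers of other cells moved with genotype in part. Of 5 endothelial markers, Cdh5, Kdr and Flt1 rose while Pecam1 and Tek did not pass the test, and the summed level was 110 to 146 CPM in KO/KO and 32.2 to 38.4 CPM in WT/WT. Pecam1 averaged 4.04 CPM in KO/KO and 3.61 CPM in WT/WT, and Tek averaged 2.69 CPM in KO/KO and 3.04 CPM in WT/WT. Of 4 macrophage and leukocyte markers, 2 of them tested, Cd68 rose, averaging 4.07 CPM in KO/KO and 1.48 CPM in WT/WT. Ptprc went the other way without passing the test, averaging 0.155 CPM in KO/KO and 0.302 CPM in WT/WT. The sum was 3.79 to 4.79 CPM in KO/KO and 1.32 to 2.21 CPM in WT/WT, with Adgre1 at 0 in all KO/KO libraries. Leydig markers summed to 3.53 to 7.21 CPM in KO/KO and 6.27 to 15.6 CPM in WT/WT, peritubular myoid markers to 8.09 to 11.2 CPM in KO/KO and 5.29 to 18.7 CPM in WT/WT, and 0 of the 3 tested in each list passed in edgeR. Erythroid markers summed to 0.536 to 7.46 CPM in KO/KO and 0.436 to 1.78 CPM in WT/WT, highest in KO/KO replicate 3. Hbb-bs was the 1 of 3 tested that was called higher, although its libraries overlapped between genotypes. Alas2 did not pass the test and averaged 0.367 CPM in KO/KO and 0.484 CPM in WT/WT. No listed marker was at 0 in all 6 libraries. Whether the marker transcripts came from the named cell types or from the germ cells is unknown here. Their part in the mitochondrial shares was not tested.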

How the data were processed

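The authors deposited raw read counts per feature for 6 libraries. The submitters' processing notes name mm10 as the build and STAR 2.7.0a and featureCounts 1.5.1 as tools. RNA was isolated with a PicoPure kit, DNase-treated and made into stranded total RNA libraries, per the labels' protocols. Not given in the sources used here are the annotation release, the read length, the strand setting and what was done with reads that match several places.

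Genes, without the 1205 transposable element families, were fitted with edgeR 4.0.16 in R 4.3.3 (quasi-likelihood F test, TMM factors, filterByExpr, genotype as the only term, two-sided, Benjamini-Hochberg over all genes tested, threshold 0.05). The SE is the size of the log2 fold change divided by the square root of F. Shares used all gene counts as denominator and received no test. Alternatives were other scalings, filters and totals, each library left out in turn, a block for the replicate number, DESeq2 1.42.0 and voom in limma 3.58.1. Named nuclear genes are up to 4 per list with the smallest p. Of the list symbols, 1 was matched through a synonym and 1 was not found. Members and lists were chosen with earlier results of these data known. Coordinates and sequences came from GENCODE M21, and no genome sequence was used. Figures were drawn with matplotlib 3.10.9.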

Additional observations from a re-analysis of the deposited data

How the results depend on the processing

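Across 355 combinations of a tested mitochondrial gene and an alternative, 313 kept their side of the threshold, 20 lost the call, 22 gained it and 0 reversed a call. In 9 of the 313, all of uncalled genes, the sign changed (mt-Ty, mt-Co2, mt-Atp6, mt-Co3, mt-Nd3 and mt-Tr, each without 1 library). The coding genes called lower numbered 4, with 1 to 6 when 1 library was left out, 8 with no filter on low counts and 5 with the replicate number as a block, and 0 were called higher except for 2 with no filter. The rRNAs called lower numbered 1, with 0 to 2 when 1 library was left out, 2 with no filter and 2 with voom. The tRNAs called higher numbered 1, with 0 to 1 when 1 library was left out, 3 with no filter, and 0 under the replicate block and with voom. With a filter of 1 CPM the number was also 0, because mt-Ti was then removed and not tested. The tRNAs called lower numbered 0, with 0 to 1 when 1 library was left out and 1 with no filter and with DESeq2. The nuclear genes called higher numbered 2, with 0 to 1 when 1 library was left out, 0 with upper quartile factors, 1 with no filter, 0 under the replicate block and 4 with DESeq2. Those called lower numbered 13, with 2 to 12 when 1 library was left out and 8 under the replicate block. They numbered 15 with no filter, 17 with DESeq2 and 10 with totals without mitochondrial and nuclear rRNA entries. The cause of these differences was not tested. Samples with the same number did not deviate together over the genes tested (correlations -0.09, 0.04 and 0.02). These values cannot exclude a pairing that is small or limited to some genes.

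Leaving out 1 library moved the log2 ratio of shares to between -0.53 and -0.27 for coding genes (-0.41 with all), between -0.38 and -0.21 for rRNAs (-0.27) and between -0.22 and 0.51 for tRNAs (0.24), where KO/KO replicate 3 decided the sign. Windows of 75 or 100 bases, chosen after seeing the data, left 6 coding genes with at least 50% shared, since mt-Co1 then had 39.8% and 30.8%. The 13 tRNAs removed by the filter on low counts had at most 40 counts in any library and were not tested.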
